A study of Homo sapiens with 2 samples.

Results

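The 8 genes KLF2, KLF4, KLF5, KLF17, TFCP2L1, ESRRB, NR5A2 and TBX3 encode transcription factors of the naive pluripotent state, and their chromatin was described in H1 cells, an established human embryonic stem cell line. A region of accessible chromatin was counted for a gene when the summit of its signal lay in the GENCODE gene body or within 100 kb of it. This gave 136 regions, with 200 summits, of 160327 regions and 236878 summits in the list, around 8 of 20007 protein-coding genes. The assay was ATAC-seq, where a transposase cuts and tags open DNA, applied to 2 samples of thawed H1 cells that form 1 group and share 1 peak list. No treatment, genotype or second cell type was compared, and the labels give neither the culture medium nor whether the samples were separate cultures. Each value below therefore stands without replicate error and without a test, and is set beside the same value over the whole list. The fold over background and the −log10 p of each summit are the authors' own values, and a region carries the fold of its highest summit. In a bulk assay, a site open in fewer cells and a site less open per cell cannot be told apart.

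Pluripotent cells exist in a naive state, like that of the epiblast before implantation, and in a later, primed state, to which human embryonic stem cells in conventional culture are closer. In mouse embryonic stem cells the leukaemia inhibitory factor (LIF) signal acts through STAT3 and maintains Klf4 and Tfcp2l1, while Esrrb, Nr5a2, Klf2 and Tbx3 belong to the same self-renewing circuit. KLF17 is a marker of the human naive state and of the human epiblast, and ESRRB is known mainly from the mouse circuit. Many of these genes also act in other tissues, so an open site near them is not by itself a sign of the naive state.

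The labelled cell type was looked at through 8 pluripotency genes that the naive and primed states share. A summit within 1 kb of the canonical start, the 5′ end of the Ensembl canonical transcript, was present at 7 of them, close to the 76.9% of all protein-coding genes with one, so the count does not bear on cell identity. SOX2 had a fold of 4.69, NANOG 9.48, SALL4 8.57, PRDM14 5.20, ZFP42 11.2, DPPA4 8.05 and MYCN 5.09. POU5F1, which encodes OCT4, had none there and a fold of 5.54 at another of its annotated starts.

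The sequence at a strong region of 7 of the genes is given first. For each of these genes it is the region with the highest fold among those whose nearest protein-coding start was the gene's own and whose printed bases overlap no UTR. Each run holds 151 bases of the hg38 reference, plus strand, with the summit base in the centre in capitals, and any match to a searched motif in capitals as well. The regions had folds of 17.6 (KLF4), 14.6 (KLF5), 5.91 (KLF17), 9.58 (TFCP2L1), 9.98 (ESRRB), 19.0 (NR5A2) and 10.4 (TBX3). Among the regions left out by this choice, folds reached 11.5 at ESRRB and 7.96 in the KLF17 window. The label of strongest region below thus holds within the choice alone.
KLF4 strongest region, chr9:107438476-107438626, plus strand: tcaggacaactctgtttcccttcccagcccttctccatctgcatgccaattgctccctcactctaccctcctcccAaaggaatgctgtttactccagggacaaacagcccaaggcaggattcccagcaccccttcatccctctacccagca
KLF5 strongest region, chr13:73075656-73075806, plus strand: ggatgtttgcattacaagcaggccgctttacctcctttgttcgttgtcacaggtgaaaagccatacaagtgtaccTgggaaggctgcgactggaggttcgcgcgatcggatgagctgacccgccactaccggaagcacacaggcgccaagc
KLF17 strongest region, chr1:44088951-44089101, plus strand: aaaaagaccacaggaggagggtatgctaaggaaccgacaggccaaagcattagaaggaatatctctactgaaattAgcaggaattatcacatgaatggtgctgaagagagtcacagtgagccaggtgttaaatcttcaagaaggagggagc
TFCP2L1 strongest region, chr2:121297577-121297727, plus strand: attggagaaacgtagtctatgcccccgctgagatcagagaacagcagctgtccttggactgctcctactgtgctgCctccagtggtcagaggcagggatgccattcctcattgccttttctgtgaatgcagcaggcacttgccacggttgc
ESRRB strongest region, chr14:76387226-76387376, plus strand: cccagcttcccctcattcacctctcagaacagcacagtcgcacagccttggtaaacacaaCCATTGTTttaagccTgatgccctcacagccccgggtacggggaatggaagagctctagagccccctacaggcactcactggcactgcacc
NR5A2 strongest region, chr1:200048329-200048479, plus strand: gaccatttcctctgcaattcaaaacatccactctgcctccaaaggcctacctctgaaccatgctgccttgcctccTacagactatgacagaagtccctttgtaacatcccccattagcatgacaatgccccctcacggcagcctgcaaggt
TBX3 strongest region, chr12:114639154-114639304, plus strand: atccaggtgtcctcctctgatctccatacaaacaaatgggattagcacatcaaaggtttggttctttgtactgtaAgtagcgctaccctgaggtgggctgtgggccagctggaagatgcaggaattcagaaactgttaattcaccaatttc
The KLF5 and NR5A2 bases include coding sequence, in exon 4 of KLF5 and exon 5 of NR5A2. The KLF4 bases lie in an intron of the long noncoding RNA gene LINC01509, and the ESRRB bases in intron 1 of ESRRB. Of the 7 runs, the one of ESRRB held a motif match, the SOX string CCATTGTT.

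By fold, the strongest region lay away from the canonical start at 7 of the 8 genes. By −log10 p, the regions at the canonical starts of KLF5 (466), ESRRB (127) and TBX3 (87.0) were the highest of their windows. Of the 10 regions with the highest fold, 4 belonged to KLF4, 3 to NR5A2, 2 to KLF5 and 1 to ESRRB. Of the 10, 7 were distal, meaning that no summit lay within 1 kb of an annotated gene's 5′ end or canonical start. In the whole list 85.2% of regions were distal, as were 11177 of the 16034 regions in its highest decile by fold, so 7 of 10 is not particular to these genes. The median fold of the 136 regions was 5.11, with a range of 1.98 to 19.0, against 5.38 over the whole list. The 10th and 90th percentiles were 3.00 and 10.4 for the 136 regions, against 3.20 and 11.9 for all regions. Regions in the highest decile of the list by fold numbered 8 of 136 (5.88%), and 58 (42.6%) exceeded the list's median. By these measures the regions sat slightly below the list as a whole.

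**Figure D1:**
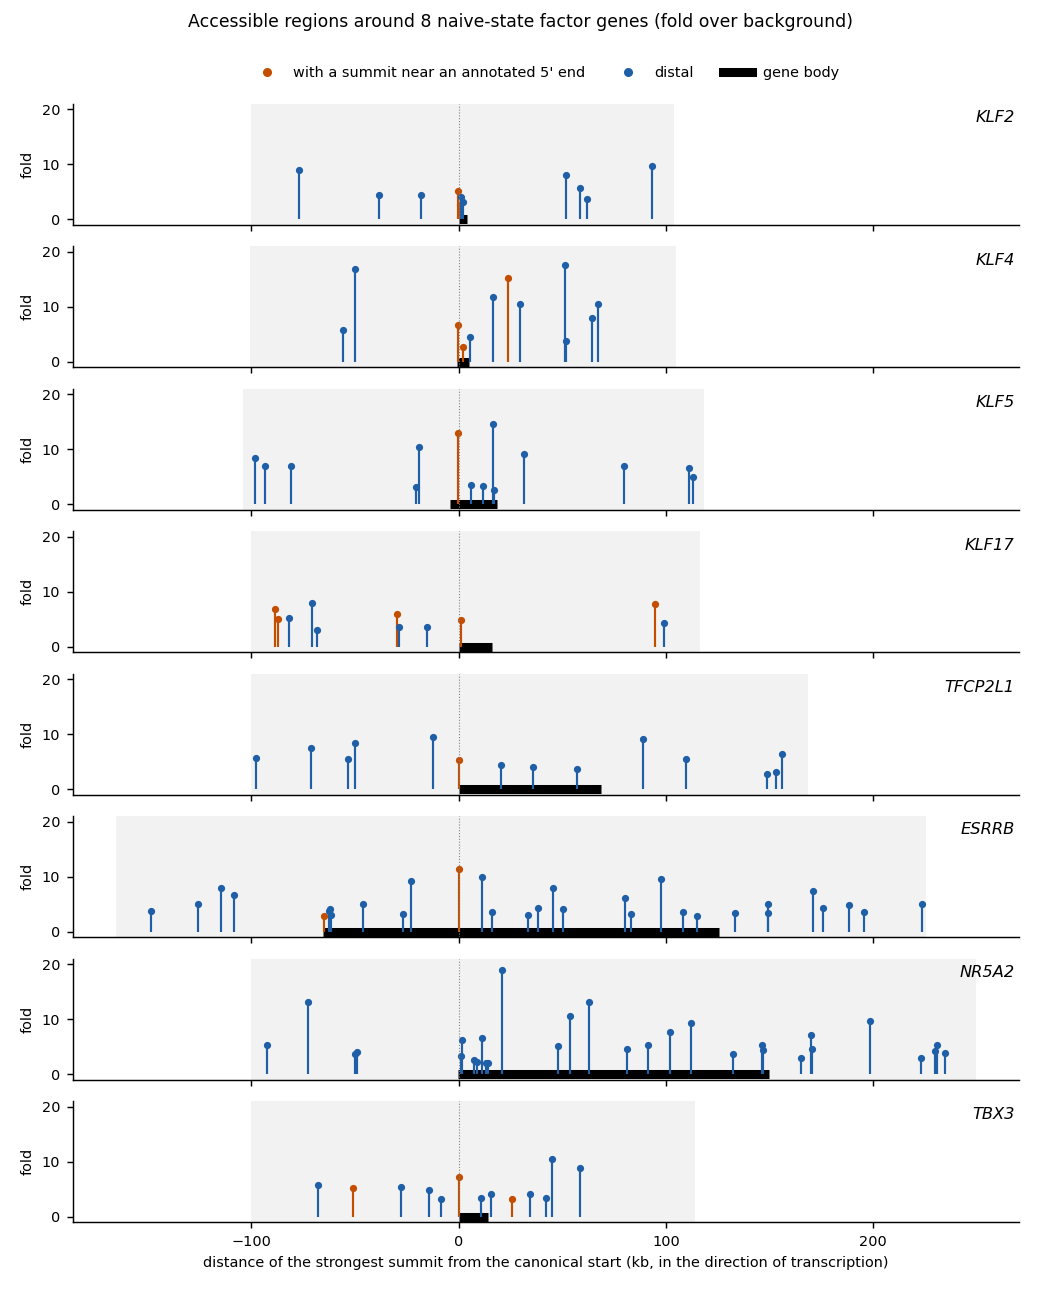
Fold over background (y axis) of each accessible region against the distance in kb of its strongest summit from the canonical start, in the direction of transcription (x axis), for the 8 genes. Orange stems have a summit within 1 kb of an annotated 5′ end, blue stems are distal, the black bar is the gene body and the grey band the gene body with 100 kb to either side. The highest stems belong to NR5A2 (19.0), KLF4 (17.6, 16.9 and 15.3) and KLF5 (14.6).

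KLF2, KLF4 and KLF5 encode zinc finger factors that bind CACCC and GC-rich boxes, and in mouse embryonic stem cells they share much of their function. KLF2 (ENSG00000127528.6, chromosome 19, 16324826 to 16328685, plus strand) had 11 regions with folds of 2.60 to 9.73 and a median of 4.47. Its promoter region (16324292 to 16324966) had its summit 210 bp before the start, with a fold of 5.22. Another region, with a fold of 2.60, lay 599 bp inside the gene in exon 2, followed by intronic regions of 4.08 and 3.06 at 1.27 kb and 2.00 kb. The 2 highest KLF2 folds lay outside the gene, with 9.73 at 93.1 kb downstream of the start, in an intron of EPS15L1, and 8.95 at 77.1 kb upstream. For both, another gene's start (EPS15L1 and AP1M1) was nearer than that of KLF2. No summit followed for 50.0 kb after the region at 2.00 kb.

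KLF4 (ENSG00000136826.15, chromosome 9, 107484852 to 107490482, minus strand), one of the factors used to reprogram somatic cells, had the highest median fold of the 8 genes. Its 12 regions ranged from 2.67 to 17.6 with a median of 9.20, and 9 of them exceeded the list's median. The promoter region (107489454 to 107490509) held 3 summits, the strongest 202 bp upstream of the start with a fold of 6.64. The region of 17.6 lay 51.2 kb downstream (107438157 to 107438819, percentile 98.7 of the list by fold). A region of 16.9 lay 50.1 kb upstream in intergenic sequence (107539581 to 107540119, percentile 98.2). Both exceeded the promoter fold of KLF4 itself, as did 5 other regions between 16.7 and 67.4 kb downstream with folds of 7.95 to 15.3. The nearest of these, in intergenic sequence at 16.7 kb, had 11.8. The one of 15.3 (107465242 to 107466487) covers the 5′ end of LINC01509, 24.0 kb downstream of KLF4, and held 4 summits. By −log10 p the KLF4 promoter region (151, percentile 91.4, against 63.2 by fold) stood below the regions of 17.6 (278), 16.9 (215) and 15.3 (225). It stood above the other regions that exceeded its fold. All 12 regions had KLF4 as the nearest protein-coding start, and 8 lay downstream of the gene, against 2 upstream.

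KLF5 (ENSG00000102554.14, chromosome 13, 73054976 to 73077541, plus strand), which in the mouse is also needed in the early blastocyst, had the strongest promoter of the 8. The promoter region (73058536 to 73059950) had a fold of 13.0, a −log10 p of 466, 4 summits and a width of 1415 bp, the widest of the 136 regions. The strongest summit lay 111 bp upstream of the start. An exonic region (73075473 to 73075992) exceeded the promoter in fold, with 14.6 in coding exon 4, 16.7 kb from the start. Its −log10 p of 222 was below the 466 of the promoter. A short KLF5 transcript without a defined coding sequence starts nearby, at 73075015, so at any annotated start the highest fold of KLF5 was 14.6. The exonic region still counts as distal here, since that class uses gene 5′ ends and canonical starts alone. The other 12 KLF5 regions lay between 2.50 and 10.4, and 10.4 belonged to an intergenic region 19.1 kb upstream. The outermost annotated 5′ end, 4.03 kb upstream of the canonical start, had no summit within 1 kb.

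KLF17 (ENSG00000171872.5, chromosome 1, 44118821 to 44135140, plus strand) was the least accessible of the KLF members by maximum fold, and most of its regions lay near other genes. Its 11 regions ranged from 2.99 to 7.96 with a median of 5.07. The one region inside the gene (44119610 to 44119961) had a fold of 4.90, with the summit in intron 1, 946 bp after the start, just within the 1 kb window. No region followed for 93.9 kb, up to the promoter of DMAP1 (7.85). For 7 of the 11 regions another gene's start was nearer, SLC6A9 for 5 and DMAP1 for 2. The region of 7.96 was among them, 71.0 kb upstream of KLF17 in an intron of a long noncoding RNA gene. Next to SLC6A9 stood the KLF17 window's widest region, of 1318 bp with 5 summits and a fold of 6.94. The strongest region with KLF17 as its nearest protein-coding start, of 5.91, lay 29.8 kb upstream.

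TFCP2L1 (ENSG00000115112.8, chromosome 2, 121216587 to 121285202, minus strand), a CP2 family factor that in mouse cells mediates the LIF and STAT3 signal, had 14 regions of 2.83 to 9.58 and a median of 5.45. The promoter region (121284500 to 121285610) was 1111 bp wide with 3 summits and a fold of 5.38, its strongest summit 71 bp upstream of the start. Its highest folds lay outside the gene. The 3 intronic regions had 4.37 in intron 2, 3.94 in intron 3 and 3.73 in intron 13. In the flanks, folds of 9.58, 8.47 and 7.54 lay 12.45 kb, 50.0 kb and 71.1 kb upstream, and 9.06 lay 88.8 kb downstream of the start. All 14 had TFCP2L1 as the nearest protein-coding start.

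ESRRB (ENSG00000119715.15, chromosome 14, 76310712 to 76501837, plus strand) and NR5A2 encode orphan nuclear receptors that bind the same extended monomer site. ESRRB had 31 regions, of which 19 lay within the gene body, with folds of 2.77 to 11.5 and a median of 4.26. The canonical start at 76376137 coincided with its strongest region (76375719 to 76376568), which had a fold of 11.5 and a summit 46 bp upstream. Of 8 annotated ESRRB starts, 2 had a summit within 1 kb. The other was the outermost 5′ end, 65.4 kb upstream, with a fold of 2.86. Intron 1 of the canonical transcript held 6 regions, with 9.98 at 11.2 kb as the highest, and a region of 9.59 lay in intron 3 at 97.7 kb. The widest ESRRB region, of 980 bp, lay 46.3 kb upstream of the canonical start with a fold of 4.97. The 3 regions clustered between 61.6 and 62.6 kb upstream of the canonical start, within the longest transcript, stayed at 2.95 to 4.08.

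NR5A2 (ENSG00000116833.14, chromosome 1, 200027614 to 200177420, plus strand), which in mouse cells can replace Oct4 in reprogramming, had the highest fold of the 136 regions and no summit within 1 kb of its canonical start. Its 30 regions ranged from 1.98 to 19.0 with a median of 4.91. The nearest summit lay 1058 bp after the start at 200027710, with a fold of 3.20. The next region held 4 summits, the first 1472 bp after the start with 6.04 and the highest 1729 bp after it with 6.27. Of these summits, the one of 3.20 was within 1 kb of another annotated start, at 200027883. The region of 19.0 (200047989 to 200048852) lay in coding exon 5, 20.7 kb from the start, with a −log10 p of 481 and a percentile of 99.3 by fold. Further high regions were 13.2 in intron 5 at 63.1 kb, 13.1 in intergenic sequence 72.8 kb upstream, and 10.5 in intron 5 at 53.9 kb. No summit lay between 49.1 kb upstream and 1.06 kb downstream of the start. The NR5A2 summits thus began 1.06 kb inside the gene or lay at least 49.1 kb upstream.

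A group of NR5A2 regions in introns 1 and 2 had low folds beside moderate −log10 p values. At 7.22, 8.77, 13.0 and 14.3 kb from the start the folds were 2.60, 2.15, 2.05 and 1.98, at percentiles of 1.50 and below. Their −log10 p values were 23.4, 15.1, 13.0 and 10.5, at percentiles 43.7, 26.7, 20.7 and 12.1. Between them, at 11.1 kb, a region of 1155 bp with 4 summits had a fold of 6.54 and a −log10 p of 210 (percentiles 62.2 and 95.3). The KLF4 region at 2.07 kb, in exon 3, stood similarly apart, with a fold of 2.67 and a −log10 p of 22.5 (percentiles 1.93 and 42.4). The background that the fold is taken over is not given in the sources used here, so whether these folds are low through a high local background was not tested.

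**Figure D2:**
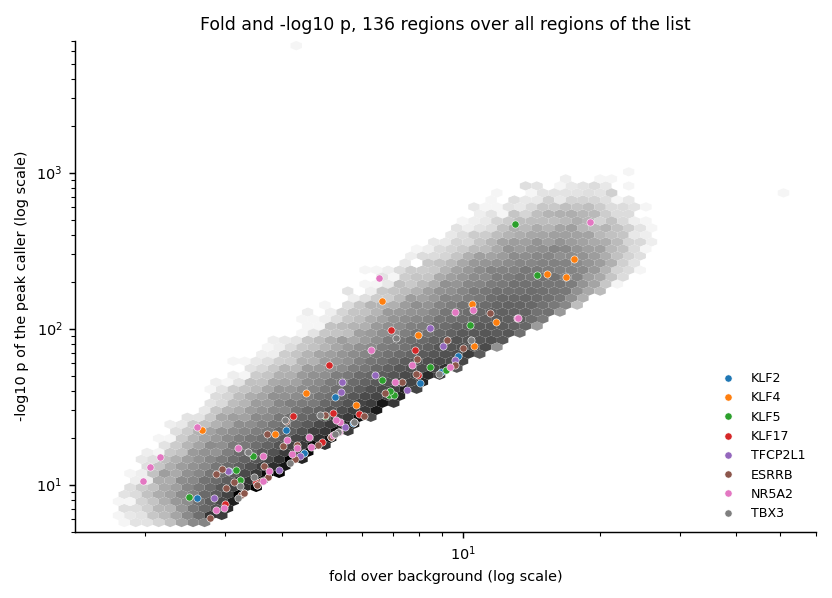
−log10 p of the peak caller (y axis, log scale) against fold over background (x axis, log scale) for the 136 regions, coloured by gene, over all 160327 regions (grey, darker where regions are denser). NR5A2 has points at the low-fold edge, down to 1.98, and a point of 19.0 with a −log10 p of 481, while the KLF5 promoter stands at 13.0 and 466.

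TBX3 (ENSG00000135111.16, chromosome 12, 114670255 to 114684175, minus strand) encodes a T-box repressor that acts in limb and heart development as well as in mouse embryonic stem cells. Its 13 regions ranged from 3.20 to 10.4 with a median of 4.84. The promoter region (114683887 to 114684757) peaked 61 bp before the start at a fold of 7.12, and the gene body held 1 further summit region, of 3.37 in intron 6, 10.8 kb from the start. The highest folds were 10.4 and 8.84, in intergenic sequence 44.9 kb and 58.8 kb downstream of the start. Upstream, 6 regions counting the promoter had folds of 3.23 to 7.12, several of them in introns of the antisense gene TBX3-AS1. The widest, of 1104 bp with 3 summits, lay 8.48 kb upstream with a fold of 3.23. Beyond 58.8 kb downstream no further region lay in the window, a gap of 55.1 kb.

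At canonical starts, 7 of the 8 genes had a summit within 1 kb, where 76.9% of all protein-coding genes had one. At any annotated start all 8 had one, against 81.2% of all genes. With 8 genes, these shares cannot be told from the background (exact 95% interval of 7 of 8, 47.3% to 99.7%, counting error only). The order by fold at the start was KLF5 (13.0), ESRRB (11.5), TBX3 (7.12), KLF4 (6.64), TFCP2L1 (5.38), KLF2 (5.22), KLF17 (4.90) and NR5A2 (0). With no replicate values, no 2 neighbours in this order can be said to differ. The median was 6.01, against 7.72 over all genes, and KLF5 (percentile 83.7) and ESRRB (74.5) were the 2 genes above the median of all genes.

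The genes differed in the CpG content of their starts, which the rule did not use. The ratio of observed to expected CpG within 500 bp of the canonical start was 1.03 at KLF4, 0.955 at KLF5 and 0.928 at KLF2, all in decile 10 (the highest) of protein-coding genes. It was 0.848 at TFCP2L1 and 0.809 at TBX3, 0.532 at ESRRB and 0.479 at KLF17, both of the last in decile 3, and 0.0684 at NR5A2, in decile 1. Across all genes, 98.6% of those in decile 10 had a summit at the start, 49.8% in decile 3 and 17.2% in decile 1. Within their own decile, KLF5 (percentile 88.5) and ESRRB (88.4) had high folds. KLF17 (62.5) was above the middle of decile 3, where the median fold was 0, so any summit placed a gene above it. KLF2 (14.4), TFCP2L1 (15.6), TBX3 (25.1) and KLF4 (27.1) had low folds within their deciles. NR5A2, with no summit, shared that state with most genes of its decile.

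The sequences before 4 of the starts show this spread. Each run is the 150 bases before the canonical start, in the direction of transcription, from the hg38 reference, and capitals mark a match to the GC box GGGGCGGGG.
KLF2 upstream bases, chr19:16324676-16324825, plus strand: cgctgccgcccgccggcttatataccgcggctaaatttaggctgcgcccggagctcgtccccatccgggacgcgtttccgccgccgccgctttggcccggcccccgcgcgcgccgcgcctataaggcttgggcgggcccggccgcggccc
TFCP2L1 upstream bases, chr2:121285203-121285352, minus strand: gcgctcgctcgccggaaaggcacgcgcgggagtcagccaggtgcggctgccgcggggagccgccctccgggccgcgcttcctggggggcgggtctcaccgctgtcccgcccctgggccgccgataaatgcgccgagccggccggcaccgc
KLF5 upstream bases, chr13:73058855-73059004, plus strand: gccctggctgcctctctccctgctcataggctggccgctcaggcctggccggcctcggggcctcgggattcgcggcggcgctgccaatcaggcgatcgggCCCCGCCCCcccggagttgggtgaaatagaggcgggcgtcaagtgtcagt
ESRRB upstream bases, chr14:76375987-76376136, plus strand: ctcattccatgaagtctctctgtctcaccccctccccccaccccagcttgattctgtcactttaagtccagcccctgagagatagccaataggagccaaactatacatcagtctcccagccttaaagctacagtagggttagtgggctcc
The KLF2 bases hold 27 CpG and those of TFCP2L1 24, with folds of 5.22 and 5.38 at the start. The KLF5 bases hold 14 CpG and a GC box match, with a fold of 13.0. The ESRRB bases hold 0 CpG, with a fold of 11.5. The bases before the other starts, not printed, hold 12 CpG at KLF4, 10 at TBX3 and 8 at KLF17, with folds of 6.64, 7.12 and 4.90. Those of KLF4 and KLF17 also hold a GC box match, and those of NR5A2 were left out because they overlap a UTR. CpG number and fold thus did not follow 1 order over these 7 promoters.

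**Figure D3:**
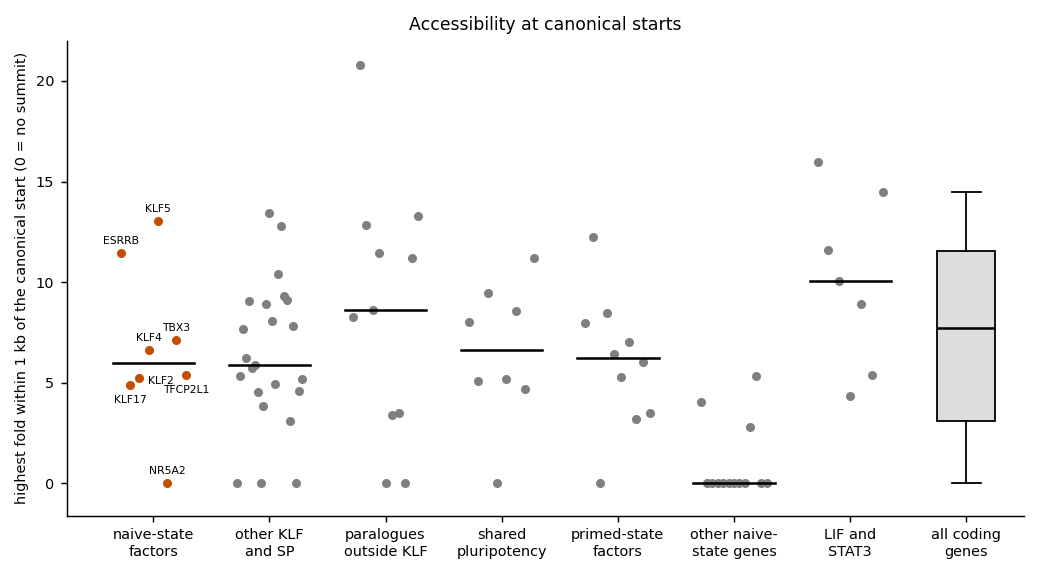
Highest fold of a summit within 1 kb of the canonical start (y axis, 0 where there was none) for each gene of the 8 naive-state factors (orange, named), of 6 other lists (grey points, lines at the medians) and for all protein-coding genes (box from the 25th to the 75th percentile, whiskers at the 10th and 90th). KLF5 (13.0) and ESRRB (11.5) stand above the other members, and NR5A2 is at 0.

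Related genes were described in the same way, beside the median of 6.01 of the 8 genes. Of 23 other KLF and SP family genes, 20 had a summit at the start, with a median fold of 5.87. KLF7 (13.4), SP2 (12.8) and SP1 (10.4) were highest, and KLF1, KLF18 and SP7 had none. Of 11 paralogues of the other members, 9 had one, with a median of 8.64, led by ESRRG (20.8), UBP1 (13.3) and GRHL1 (12.9), while NR5A1, the close relative of NR5A2, and TBX5 had none. ESRRG, an ESRRB paralogue, thus had the highest start fold of all the genes in these lists. Primed-state factors had a summit at 9 of 10 starts, with a median of 6.23, led by ETV5 (12.2), SALL2 (8.49) and ETV4 (7.97), and OTX2 had none at its canonical start.

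The other naive-state genes and the LIF and STAT3 pathway lay at opposite ends. Of 13 other naive-state genes, 3 had a summit at the canonical start and 5 at any start, namely TFAP2C (5.36), ALPG (4.04) and SUSD2 (2.79) at the canonical one. ARGFX, DNMT3L and DPPA3 had none there. All 7 LIF and STAT3 pathway genes had one, with a median of 10.0, led by the receptor subunit gene IL6ST (15.9), STAT3 (14.5) and the kinase gene JAK1 (11.6). Away from the canonical start, other annotated starts of TRIM60 and ARGFX reached folds of 17.3 and 9.80. A summit at the canonical start was thus present at 7 of the 8 genes, near the 76.9% of all protein-coding genes, against 3 of the 13 other naive-state genes, whose starts were also poorer in CpG (median ratio 0.828 for the 8 genes, against 0.450). The part of CpG content in that gap was not tested.

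The regions were spread over wide windows. The 8 genes had a median of 13.5 regions and 5.96 per 100 kb of window, against 6.42 per 100 kb over all protein-coding genes. NR5A2 (8.58 per 100 kb, percentile 76.9) and ESRRB (7.93, percentile 69.6) were above that median, and the other 6 were below it, from 5.09 (KLF17) to 6.29 (KLF5). Regions covered between 2.73% (KLF2) and 4.14% (NR5A2) of the windows. Counted instead as distal regions within 100 kb for which the gene's start was the nearest, the order was NR5A2 (17), ESRRB (15), KLF5 (11), TBX3 (10), KLF4 and TFCP2L1 (9 each), KLF2 (7) and KLF17 (2), against a median of 2 over all genes.

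These distal counts moved with the room around the genes. For 6 of the 8, the start was the nearest over the full 200 kb, against a median of 60.5 kb over all genes, and for KLF17 over 55.1 kb. Per 100 kb of such sequence the 8 genes had a median of 5.05, against 3.78 over all genes. NR5A2 had 8.50 (percentile 86.9) and ESRRB 7.50 (81.4), KLF4 and TFCP2L1 4.50 each (57.3) and KLF17 3.63 (48.7). Shared pluripotency factors had a median of 8.35 and primed-state factors 7.90 on the same scale. Other naive-state genes had 3.09 and LIF and STAT3 pathway genes 4.29. The nearest to the 8 genes were the paralogues of the other members (5.23) and the other KLF and SP family genes (5.49). The naive-state factors thus had many distal regions, at a density between those of the other lists. Per 100 kb of window, their median of 5.96 was below that of each of the 6 other lists, which ran from 6.21 to 9.58.

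**Figure D4:**
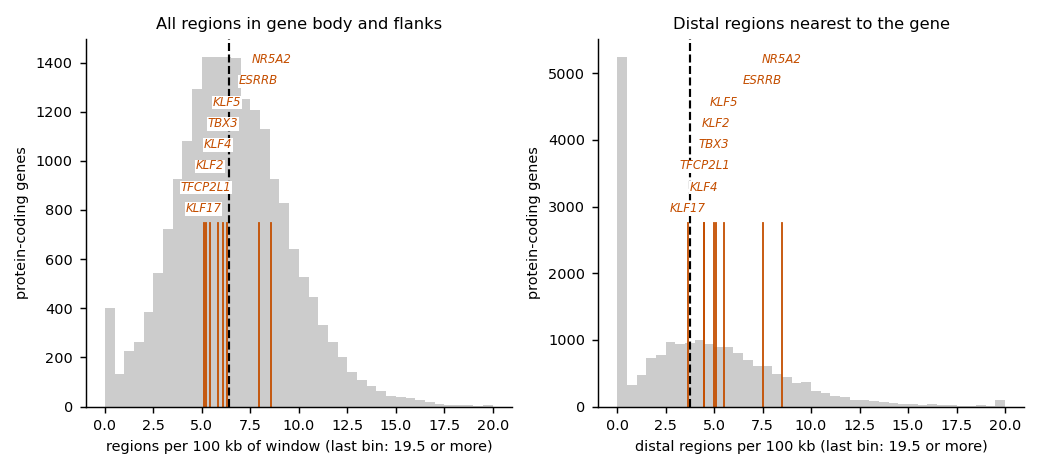
Number of protein-coding genes (y axis) by accessible regions per 100 kb of gene body and flanks (left) and by distal regions per 100 kb of the sequence nearest to the gene's start (right). Orange lines mark the 8 genes, named above, and the dashed line the median of all genes, 6.42 on the left and 3.78 on the right. NR5A2 and ESRRB stand farthest to the right in both panels.

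Most of the 136 regions lay in introns or between genes, as in the whole list. By the place of the strongest summit, 77 (56.6%) were intronic, against 50.1% of all regions, and 32 (23.5%) were intergenic, against 30.2%. Protein-coding promoters held 11 (8.09%, against 10.5%), promoters of other gene types 6 (4.41%, against 4.04%), coding sequence 3 (2.21%, against 1.52%), UTRs 5 (3.68%, against 1.71%) and other exons 2 (1.47%, against 1.98%). The 3 regions in coding sequence were the exonic regions of KLF5 (14.6) and NR5A2 (19.0) and an NR5A2 region of 5.35 in exon 8. Distal regions made up 119 of 136 (87.5%, against 85.2%), with a median fold of 4.97 against 5.16 for all distal regions. The 17 regions at annotated 5′ ends had a median of 5.38, against 7.47 for all such regions.

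Regions upstream numbered 39 with a median fold of 5.40, those in gene bodies 52 with 4.08 and those downstream 45 with 5.11. ESRRB and NR5A2, with 19 and 18, held most of the gene body regions, so these medians mix position with gene. Of the 136, 79 lay over 50 kb from the canonical start and 18 within 10 kb. Another protein-coding gene's start was nearer than the member's for 19 regions: 7 at KLF17, 5 each at NR5A2 (ZNF281) and ESRRB (3 GPATCH2L, 2 VASH1), and 2 at KLF2. Just inside the 100 kb limit lay regions of 5.11 (ESRRB, 97.8 kb from the gene), 5.75 (TFCP2L1, 97.7 kb) and 4.97 (KLF5, 94.5 kb), and just outside regions of 9.48 (KLF5, 102.0 kb), 3.20 (ESRRB, 102.3 kb) and 9.19 (NR5A2, 102.6 kb).

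Regions were of ordinary shape for the list. Their median width was 465.5 bp, with a range of 168 to 1415 bp, against 447 bp over the list. More than 1 summit was present in 41 (30.1%), against 30.7% over the list. KLF4 had the most such regions for its number, 7 of 12, and KLF2 the fewest, 1 of 11. Some regions carried identical values: 3 ESRRB regions shared a fold of 5.11 and a −log10 p of 20.3, 2 others 3.30 and 8.79, 2 KLF2 regions 4.47 and 15.9, and 2 NR5A2 regions 5.33 and 21.9. None of the 136 matched mitochondrial DNA over 50 bp or more at 80% identity or more.

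Motif strings were searched on both strands within 50 bp of the strongest summit of each region. Of the 136 regions, 33 held at least 1 of 13 motifs and 103 held none. The share of all regions with at least 1 of the 13 is not given here, so these counts have no background beside them. The CACCC box of KLF factors, CCACNCCC, was in 9 regions (6.62%, against 4.42% of all regions), and the GC box, GGGGCGGGG, in 4 (2.94%, against 2.6%). The CACCC regions were spread over KLF17, ESRRB and NR5A2 with 2 each and KLF2, KLF5 and TBX3 with 1 each. The extended monomer site of ESRRB and NR5A2, CAAGGTCA, was in 1 region (0.735%, against 0.375%), in the KLF17 window. The motif of TFCP2L1 and the T-box string AGGTGTGA were in 0 of 136, which allows a share of up to 2.68%, against 0.0923% and 0.564% of all regions.

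The motifs of other factors were as sparse. The octamer ATGCAAAT was in 1 region (0.735%, against 2.31%), and the composite of POU5F1 and SOX2, which contains the octamer, in 0, against 0.0119%. The SOX string CCATTGTT was in 2 (1.47%, against 0.798%), the TEAD string ACATTCCA in 2 (1.47%, against 1.35%), the ZIC string CCTGCTGNG in 2 (1.47%, against 2.77%) and the STAT string TTCCNGGAA in 1 (0.735%, against 0.348%). The AP-1 string TGANTCA was in 6 (4.41%, against 4.5%) and the core of the CTCF motif in 6 (4.41%, against 3.09%). For each of the 13 motifs the exact 95% interval of the 136 regions included the share of the whole list. A missing match says only that these letters are not in the window.

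**Figure D5:**
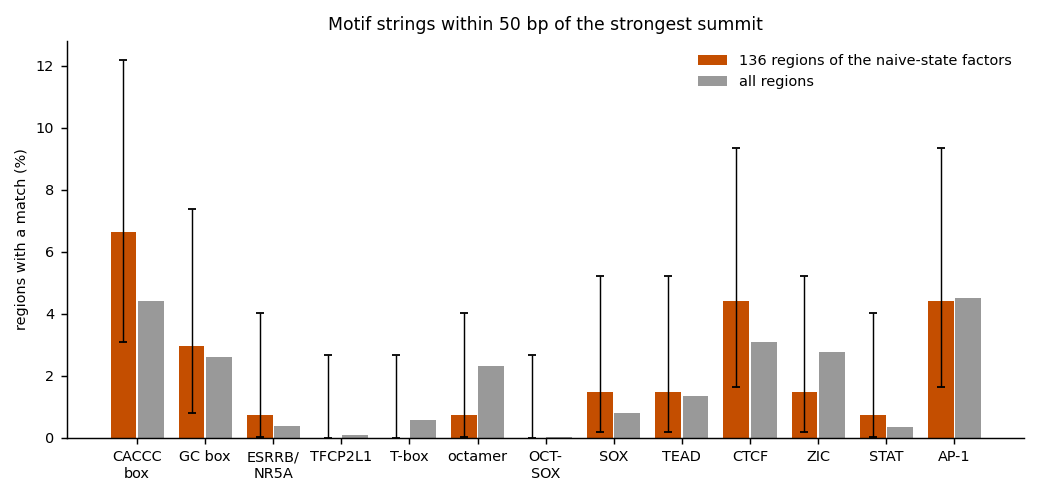
Percent of regions with a motif match within 50 bp of the strongest summit (y axis) for the 136 regions (orange, with exact 95% binomial intervals that cover counting error only) and for all 160327 regions (grey). Each interval includes the grey value, for example 3.07% to 12.2% for the CACCC box against 4.42%.

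A further 4 sequences show example matches, with 101 bases of the hg38 plus strand around the summit and matches in capitals. Binding at these matches was not measured. The first holds the monomer site of ESRRB and NR5A2 and a CACCC box, the second the octamer, the third the STAT string and the fourth the CTCF core.
KLF17 window, monomer site region, chr1:44217850-44217950, plus strand: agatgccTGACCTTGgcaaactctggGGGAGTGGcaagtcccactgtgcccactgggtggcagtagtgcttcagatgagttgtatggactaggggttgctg
KLF17 window, octamer region, chr1:44050415-44050515, plus strand: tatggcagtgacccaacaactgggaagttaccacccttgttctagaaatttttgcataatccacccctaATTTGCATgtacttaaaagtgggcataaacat
NR5A2 window, STAT region, chr1:200108826-200108926, plus strand: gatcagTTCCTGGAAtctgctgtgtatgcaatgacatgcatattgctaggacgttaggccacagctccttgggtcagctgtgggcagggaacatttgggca
ESRRB window, CTCF region, chr14:76352888-76352988, plus strand: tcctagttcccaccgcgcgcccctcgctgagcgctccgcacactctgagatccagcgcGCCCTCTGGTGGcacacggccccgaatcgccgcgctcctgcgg
The monomer site region had a fold of 4.22 and lay 99.1 kb downstream of the KLF17 start, within the gene DMAP1, so its nearest promoter is that of DMAP1. The octamer region had 2.99, 68.4 kb upstream of KLF17 with SLC6A9 as the nearest start. The STAT region had 4.64 in intron 5 of NR5A2. The CTCF region had 9.22, 23.2 kb upstream of the canonical ESRRB start and within the longest ESRRB transcript. CTCF, which holds chromatin loop anchors, had its other matches at KLF2 (77.1 kb upstream, 62.0 and 93.1 kb downstream), KLF5 (113.0 kb downstream) and TFCP2L1 (97.7 kb upstream). The 2 highest folds of KLF2, 9.73 and 8.95, were both at CTCF matches, and its CTCF match at 62.0 kb had 3.62. The regions of KLF4, KLF5 and NR5A2 with folds above 14 held none of the 13 motifs, as did 103 of the 136 regions.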

How the data were processed

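Both H1 samples share 1 deposited peak list, so values exist per list and not per sample. Per the submitters' processing notes the build was GRCh38, and per the labels the list is an optimal set from an overlap. Not given in the sources used here are the aligner, the peak caller, its settings and the read depth. The units follow the narrowPeak layout of the deposited file: a fold over an undescribed background, a −log10 p and a −log10 q of the authors' caller, a score, and a summit position. The deposited score was not used further, and it equals 10 times the −log10 p after truncation and a cap, with 12 exceptions. The deposited −log10 q was used for its lowest value, 4.03.

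Rows with the same coordinates were taken as 1 region. GENCODE release 44 and the hg38 sequence gave genes, places and sequence (pandas 2.3.3, samtools 1.23.1), and BLAST 2.17.0+ the mitochondrial matches. With 1 group and 1 list, no test was possible, and intervals are exact binomial ones at 95%. The counting steps were tested on simulated data. Alternatives were the flank (50 kb), the start, the window at the start (500 and 2000 bp, the last added after seeing the data), the summits counted, a −log10 p threshold and the motif window. The members, the gene lists and the motifs were chosen with earlier results of these data known. All 8 shared pluripotency genes are named, to look at the labelled cell type. The genes named by rule from the other 5 lists are the 3 with the highest fold at the start and, alphabetically, the first 3 without a summit there. For the 8 genes the start region and the nearest, strongest and widest regions are named, with the 10 highest folds of all. The other starts of ARGFX and TRIM60 were added after their values were seen. The sequence at 1 KLF2 region is not reported here.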

Additional observations from a re-analysis of the deposited data

How the results depend on the processing

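Of 101 alternative values for single genes or motifs, 70 were classed as the same and 31 as moved. None carries a sign, so 0 changed sign. Being classed as the same allows some change, since ESRRB was so classed with 25 regions in a 50 kb flank, against 31. The moved values were 11 of 24 region counts, 7 of 48 start folds, 13 of 16 distal counts and 0 of 13 motif shares. Medians and totals over the 8 genes are not among the 101. A 50 kb flank lowered the median number of regions per gene to 8.5 from 13.5. Keeping regions above the median −log10 p left 59 regions with a median fold of 7.96, 8 regions per gene and 5 distal regions per gene. Within 50 kb the distal regions numbered 5.5 per gene, against 9.5 within 100 kb. The count of genes with an accessible start was 7 with the canonical start, 6 with the outermost 5′ end, a 500 bp window or summits above the median −log10 p, and 8 with any annotated start or a 2000 bp window. KLF17 lost its start in the 500 bp window and under the −log10 p threshold. At the outermost 5′ end KLF5 had 0 and ESRRB 2.86, and NR5A2 had 6.27 within 2000 bp. The 13 motif shares stayed within their intervals with a 100 bp window.

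No paired analysis was possible because both samples share 1 list with no values per sample, and no replicate was left out. The depth is unknown, so a missing region is not shown to be closed chromatin.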
